A study of Mus musculus with 10 samples.

Results

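Genes of homologous recombination, the Fanconi pathway, the damage checkpoint and base repair were followed across 5 mouse blood cell populations, in control mice and in mice labelled as lacking the kinase gene Dyrk1a. The set is a list of 32 gene symbols, out of 22923 symbols in the expression tables, and its members were found by symbol alone. Of these, 30 had a row of their own. Rad54b was present only on a row shared with Fsbp, and Atrip only on a row shared with Trex1, both genes that overlap it on the same strand, so these 2 rows are described apart and are not counted with the 30. The members were sorted into 6 roles, with 8 genes of strand exchange and the BRCA complex, 5 of break sensing, resection and dissolution, 6 of the Fanconi core complex, 4 around the Fanconi ID complex, 5 of the damage checkpoint and 2 of mismatch and uracil repair.

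RNA sequencing had been done on C57bl/6 mice at 4 weeks of age, on total RNA from suspensions of cells labelled by surface staining and by nucleic acid dyes. The populations were cycling and quiescent CD4+CD8+ thymocytes from the thymus, and large pre-B cells, small pre-B cells and mature granulocytes from the bone marrow. The control mice carried the genotype Dyrk1a flox/flox, Mx1-Cre-, and the others, labelled CKO, were Dyrk1a -/-, Mx1-Cre+. Each of the 10 libraries came from 2 pooled mice, so there was 1 library per population and genotype. Mx1-Cre is driven by an interferon-inducible promoter that is active in blood cells and also in other tissues, so deletion is not limited to the populations sorted here, and the control mice lacked the Cre transgene as well as keeping Dyrk1a. The flox/flox alleles are shared background of the controls, and treatment with an inducer of Mx1-Cre is not described in the labels. Large pre-B cells and cycling thymocytes divide, whereas small pre-B cells and quiescent thymocytes are the following stages, which leave the cell cycle and rearrange light chain or T cell receptor alpha genes.

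Homologous recombination repairs a broken chromosome by copying the sister chromatid: break sensors and nucleases resect the ends, BRCA1, BARD1, PALB2 and BRCA2 prepare the resected strand, and RAD51AP1, RAD54L, XRCC2 and XRCC3 help it to pair with the sister. In the Fanconi pathway, which removes cross-links between DNA strands, a core complex with the ligase FANCL ubiquitinates FANCD2 and FANCI, and USP1 takes the ubiquitin off again. ATR, with ATRIP and TOPBP1, and ATM signal to the kinases CHEK1 and CHEK2, which hold the cell cycle while damage persists. A sister chromatid exists only after replication, and many of these genes are known to be transcribed mainly in S and G2 phase under E2F factors and the repressor complexes of quiescent cells.

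Levels are in FPKM, which divides the fragments of a gene by transcript length and by the library's total, so they can be compared between genes and are relative within a library. In bulk samples such as these, fewer cells that express a gene and less of its RNA per cell cannot be told apart. Summed over genes, the 8 lymphoid libraries held 360394 to 431868 FPKM, whereas control and CKO-labelled granulocytes held 830006 and 1074258, and 9818 to 10350 symbols reached 1 FPKM per library. Sequencing depth is unknown. Each labelled cell type carried its own markers. The 9 thymocyte markers summed to 2145 to 3824 FPKM in the thymocyte libraries, the 9 pre-B markers to 1963 to 3820 FPKM in the pre-B libraries and the 10 granulocyte markers to 68579 and 56744 FPKM in control and CKO-labelled granulocytes. Dyrk1a itself was not lower in any CKO-labelled library (31.2 and 42.3 FPKM in control and CKO-labelled cycling thymocytes, 37.4 and 44.7 in quiescent thymocytes, 33.2 and 34.4 in large pre-B cells, 34.1 and 36.9 in small pre-B cells, 32.1 and 41.9 in granulocytes). Gene totals do not show whether a deleted exon is missing, so the genotype rests on the labels, and the libraries are called control and CKO-labelled.

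The promoters of 6 members are shown because, among the members with a promoter entry and a row of their own, the fall described next was largest in the first 4 and smallest in the last 2. Each is 150 bases of RefSeq's GRCm38.p6 sequence, from 120 bases before to 30 bases after the annotated start, read 5′ to 3′ on the strand of the gene. Capitals mark E2F letters and NF-Y letters on either strand. The E2F letters searched were TTGGCGC and, as variants of it, TTCCCGC, then also TTCGCGC and finally TTGCCGC, and the NF-Y letters were CCAAT. Rad51ap1, Rad54l, Atm and Msh6 had the most and the least negative mean difference among members with a promoter entry, and Chek1 and Brca1 were added after their values were seen. They are Rad51ap1 (chr6:126939558-126939707, minus strand), Rad54l (chr4:116123661-116123810, minus strand), Chek1 (chr9:36726629-36726778, minus strand), Brca1 (chr11:101551926-101552075, minus strand), Atm (chr9:53536642-53536791, minus strand) and Msh6 (chr17:87974930-87975079, plus strand).
Rad51ap1: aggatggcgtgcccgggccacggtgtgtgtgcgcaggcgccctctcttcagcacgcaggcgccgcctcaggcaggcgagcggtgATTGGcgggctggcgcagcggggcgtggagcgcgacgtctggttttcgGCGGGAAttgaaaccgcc
Rad54l: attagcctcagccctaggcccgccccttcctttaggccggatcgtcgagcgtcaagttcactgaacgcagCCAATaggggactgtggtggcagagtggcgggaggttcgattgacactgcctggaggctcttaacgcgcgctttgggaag
Chek1: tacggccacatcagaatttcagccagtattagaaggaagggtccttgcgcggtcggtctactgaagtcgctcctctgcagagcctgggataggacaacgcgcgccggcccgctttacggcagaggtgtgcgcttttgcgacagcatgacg
Brca1: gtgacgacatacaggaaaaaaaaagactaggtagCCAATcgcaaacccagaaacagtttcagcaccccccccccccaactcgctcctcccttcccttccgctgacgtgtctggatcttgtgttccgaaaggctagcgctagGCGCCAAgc
Atm: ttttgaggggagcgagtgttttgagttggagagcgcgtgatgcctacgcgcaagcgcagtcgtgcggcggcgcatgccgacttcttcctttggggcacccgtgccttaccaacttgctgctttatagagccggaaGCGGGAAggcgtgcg
Msh6: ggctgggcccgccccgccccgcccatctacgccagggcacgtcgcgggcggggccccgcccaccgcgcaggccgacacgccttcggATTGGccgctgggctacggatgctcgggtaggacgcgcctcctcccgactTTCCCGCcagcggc

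E2F letters were found in members' promoters whether or not the gene was called lower. RefSeq's promoter table, with 250 bases before and 50 after each start, held 24 of the 32 members. E2F letters were found in 15 of the 24 (62.5%), against 18.1% of the 7959 promoters of genes in the tests of cycle state below and 9.69% of all 27025 promoters. CCAAT was also found in 15 of the 24 (62.5%), against 40.2% and 37.9%. The CHR letters TTTGAA or TTCGAA, which a repressor complex of cell-cycle genes is known to read, were found in 2 of the 24, Bard1 and Atr (8.33%, against 13.8% and 19.4%). The reverse of CCAAT shares letters with the first E2F form, so a match of one can overlap a match of the other, and the base composition of the windows was not matched. Of the 12 members with the more negative mean difference 10 held E2F letters, and of the 11 with the less negative one 5 did. The contrast among single genes was less clear. Rad54l, with one of the largest falls, held none of these E2F letters in its window. The match of Chek1 lay at 44 to 50 bases after the start and so outside the printed stretch. Atm and Msh6, which were not called lower in thymocytes, held matches at 16 to 22 and 17 to 23 bases after the start. A match of letters is a description of the sequence and does not show binding.

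**Figure D1:**
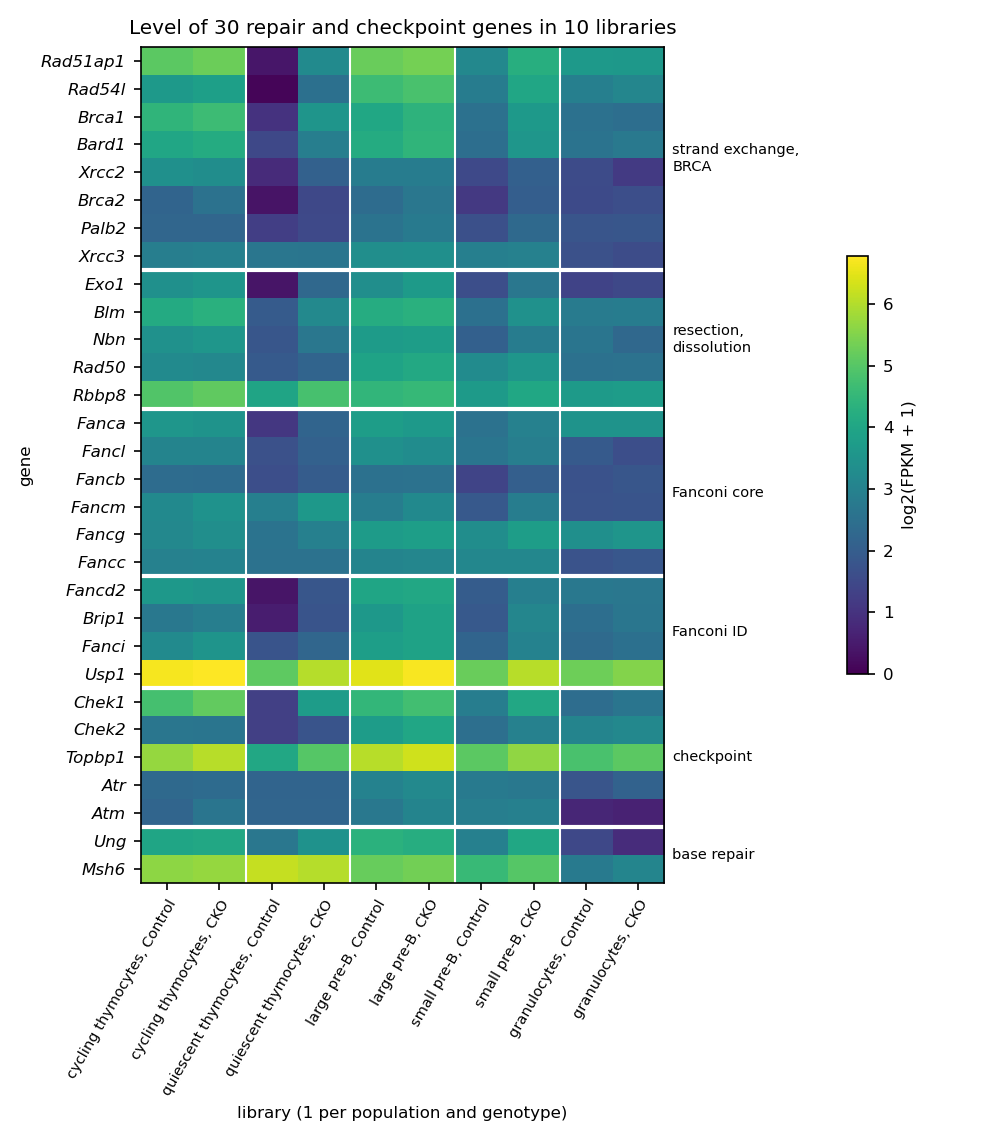
Level of the 30 genes with a row of their own (rows, grouped by role and, within a role, ordered by mean cycle-state difference) in the 10 libraries (columns), as log2(FPKM + 1), with 1 library per column. The column of control quiescent thymocytes is the darkest for most genes, and the row of Msh6 is brightest there.

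Cells that had left the cycle held less RNA of most of these genes. The 30 members summed to 506 FPKM in control cycling thymocytes and 196 FPKM in control quiescent thymocytes, and to 541 FPKM in large and 229 FPKM in small control pre-B cells. The corresponding CKO-labelled sums were 566 and 325 FPKM in thymocytes and 612 and 383 FPKM in pre-B cells. The median member stood at 9.60 FPKM in control cycling thymocytes and at 2.31 FPKM in control quiescent thymocytes, and 20 of the 30 had their lowest value of the 10 libraries in that last library, as did 14.0% of all genes. Both quiescent thymocyte libraries lay below both cycling ones for 27 members and above both for 1, Msh6, against 31.1% and 39.3% of all genes tested. In pre-B cells both small libraries lay below both large ones for 27 members and above both for 1, Fancc, against 34.4% and 39.3%.

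The cycle-state comparison took the 2 genotypes as 2 pairs of libraries in each lineage, with both lineages in 1 limma fit on log2(FPKM + 1) over 11126 genes. With 1 library per population and genotype, its p-values measure how alike the pairs moved and not the spread between animals. In thymocytes 23 of the 30 members were lower in quiescent cells and 1 was higher at a limma adjusted p under 0.05, whereas 44.9% of all genes tested were called, 19.7% as lower and 25.2% as higher. In pre-B cells 21 were lower in small cells and none was higher, against 47.4% of all genes called, 21.8% as lower and 25.6% as higher. The median log2 difference of the members was -1.21 in thymocytes and -0.95 in pre-B cells, and that of all genes was 0.06 and 0.04. Of the members, 17 were called lower in both lineages, 6 in thymocytes alone, 4 in pre-B cells alone and 3 (Atm, Atr and Ung) in neither. A call in 1 lineage alone does not show that the lineages differ, and the test of that difference is given further on. Without the control thymocyte pair no member was called in thymocytes, and without the control or the CKO-labelled pre-B pair 0 and 1 member were called in pre-B cells. These fits called few genes of any kind without a control pair (0.0365% and 0.0276% of all genes) and 13.2% of all genes without the CKO-labelled pre-B pair.

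The 15 proliferation reference genes (such as Mki67, Pcna and cyclin genes) moved with these members. Their summed level was 3124 FPKM in control cycling and 428 FPKM in control quiescent thymocytes, 3114 FPKM in large and 826 FPKM in small control pre-B cells, and 15 of 15 were called lower in quiescent thymocytes and 7 of 15 in small pre-B cells. None of the 15 was listed at 0 in any library. The summed markers of granulocytes and of erythroid cells were also lower in small than in large pre-B cells. The 10 granulocyte markers summed to 828 and 360 FPKM in control and CKO-labelled large cells and to 91.8 and 61.9 FPKM in small ones, and the 7 erythroid markers to 467 and 270 FPKM and to 116 and 92.9 FPKM, with none of either list at 0. Elane, Mpo and Prtn3, at 251, 365 and 183 FPKM, made most of the granulocyte sum in control large cells. These, with Cebpe and Csf3r, were lower in small cells of both genotypes. Ltf, Camp, Lcn2, Mmp8 and Mmp9 were higher in small cells of both genotypes, as was the erythroid marker Tfrc. The 8 plasmacytoid dendritic cell markers summed to 578 and 359 FPKM in large and 990 and 962 FPKM in small cells. Spib, at 214 FPKM in large and 839 FPKM in small control cells, made most of the control sum in small cells. Tcf4 and Irf8 were also higher in small control cells, whereas Siglech, Bst2, Runx2, Cd7 and Ly6c2 were lower. Between the CKO-labelled libraries Ly6c2 alone was lower in small cells. The part of cycling cells and of these other cells in the results on repair genes was not tested.

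All 8 genes of strand exchange and the BRCA complex were lower in both noncycling libraries than in both cycling ones, in each lineage. Of the 8, 7 were called lower in thymocytes and 5 in pre-B cells, against 19.7% and 21.8% of all genes. Rad51ap1, whose product promotes strand invasion (chromosome 6, 126923050 to 126939587), was at 33.1 and 37.3 FPKM in control and CKO-labelled cycling thymocytes, 0.323 and 8.52 in quiescent thymocytes, 36.4 and 40.5 in large pre-B cells, 8.01 and 18.1 in small pre-B cells, and 11.7 and 11.2 in granulocytes. Control quiescent thymocytes were far below the other 9 libraries, and the noncycling libraries did not overlap the cycling ones in either lineage. Its log2 difference was -3.35 (SE 0.62, limma adjusted p = 0.0117) in thymocytes and -1.59 (SE 0.62, limma adjusted p = 0.084) in pre-B cells. Rad54l, a motor protein of strand exchange that moves along DNA, was at 11.8 and 13.3 FPKM in cycling thymocytes, 0.0705 and 4.65 in quiescent thymocytes, 24.2 and 27.5 in large pre-B cells, 6.23 and 15.3 in small pre-B cells, and 6.55 and 7.67 in granulocytes, control first in each pair. That again placed the control quiescent thymocytes lowest, and Rad54l differed by -2.46 in thymocytes (SE 0.54, limma adjusted p = 0.0175) and by -1.30 in pre-B cells (SE 0.54, limma adjusted p = 0.0972). On the strand opposite to Rad54l the gene Lrrc41 overlaps it, and with the strand setting of the counting not given, reads of such pairs cannot be told apart.

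Brca1, the scaffold of the BRCA complexes (chromosome 11, 101488764 to 101551955), was at 20.7 and 24.4 FPKM in cycling thymocytes, 0.98 and 10.7 in quiescent thymocytes, 15.4 and 19.9 in large pre-B cells, 4.77 and 11.6 in small pre-B cells, and 4.80 and 4.52 in granulocytes, in control and CKO-labelled libraries. Its partner in the ubiquitin ligase, Bard1, was at 15.2 and 17.0, 1.80 and 6.42, 17.2 and 20.7, 4.48 and 10.9, and 5.02 and 5.66 FPKM in the same order. For both genes the 2 quiescent and the 2 small libraries were below their cycling counterparts. In pre-B cells Bard1 was called lower (log2 difference -1.30, SE 0.35, limma adjusted p = 0.0297) and Brca1 was not (-1.12, SE 0.54, limma adjusted p = 0.138). Brca2, which acts after resection, fell from 3.53 and 4.92 FPKM to 0.289 and 1.75 FPKM in thymocytes and from 4.28 and 5.50 FPKM to 1.18 and 3.08 FPKM in pre-B cells. Palb2, the bridge between BRCA1 and BRCA2, and Xrcc2, a strand exchange factor, also fell in both lineages. Xrcc3, another strand exchange factor, had the smallest differences of these 8 genes, at 6.41 and 6.79 FPKM in cycling thymocytes, 5.38 and 5.23 in quiescent thymocytes, 9.27 and 9.36 in large pre-B cells, 6.62 and 6.86 in small pre-B cells, and 2.24 and 1.96 in granulocytes. Its difference was -0.41 in pre-B cells (SE 0.12, limma adjusted p = 0.0338) and -0.27 in thymocytes (SE 0.12, limma adjusted p = 0.111). The row shared by Fsbp and Rad54b, the latter a second RAD54 motor, went from 11.1 and 11.8 FPKM to 0.108 and 3.59 FPKM in thymocytes and from 15.1 and 17.8 FPKM to 3.12 and 8.73 FPKM in pre-B cells.

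Each of the 5 genes of break sensing, resection and dissolution fell in both lineages. Exo1, the exonuclease of long-range resection, was at 9.58 and 10.6 FPKM in control and CKO-labelled cycling thymocytes, 0.316 and 3.91 in quiescent thymocytes, 9.15 and 11.9 in large pre-B cells, 2.07 and 5.46 in small pre-B cells, and 1.57 and 1.77 in granulocytes. It differed by -2.12 in thymocytes (SE 0.43, limma adjusted p = 0.0141) and by -1.36 in pre-B cells (SE 0.43, limma adjusted p = 0.0461). Rbbp8, which encodes CtIP, the factor that starts resection, was the most abundant of the 5, at 29.8 and 34.3 FPKM in cycling thymocytes, 14.7 and 27.4 in quiescent thymocytes, 21.1 and 22.2 in large pre-B cells, 11.9 and 15.6 in small pre-B cells, and 12.1 and 12.6 in granulocytes. The groups did not overlap, but its difference was small, at -0.64 (SE 0.18, limma adjusted p = 0.0369) in thymocytes and -0.63 (SE 0.18, limma adjusted p = 0.038) in pre-B cells. Blm, the helicase that dissolves crossed strands, was at 16.9 and 18.7 FPKM in cycling thymocytes, 2.89 and 8.17 in quiescent thymocytes, 17.4 and 19.0 in large pre-B cells, 4.67 and 9.73 in small pre-B cells, and 6.10 and 6.21 in granulocytes. Rad50 and Nbn, subunits of the break sensor, differed by -1.14 and -1.24 in thymocytes and by -0.60 and -1.30 in pre-B cells.

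The Fanconi core complex was the more mixed part of the Fanconi pathway, with 4 of 6 genes called lower in each lineage, not the same 4. Fanca (chromosome 8, 123268300 to 123318576) was at 10.7 and 10.2 FPKM in cycling thymocytes, 1.15 and 3.55 in quiescent thymocytes, 12.6 and 11.6 in large pre-B cells, 4.88 and 6.89 in small pre-B cells, and 10.3 and 10.2 in granulocytes. It fell by 1.87 on the log2 scale in thymocytes (SE 0.30, limma adjusted p = 0.0087) and by 0.94 in pre-B cells (SE 0.30, limma adjusted p = 0.0465). Fancg, a scaffold subunit with the highest mean of the 6, was at 7.92 and 9.32 FPKM in cycling thymocytes, 4.99 and 6.69 in quiescent thymocytes, 12.2 and 13.1 in large pre-B cells, 9.11 and 12.8 in small pre-B cells, and 9.48 and 10.7 in granulocytes. Its small pre-B libraries overlapped the large ones. Fancc was at 6.94 and 7.09 FPKM in cycling thymocytes, 4.86 and 4.84 in quiescent thymocytes, 7.29 and 7.72 in large pre-B cells, 7.78 and 7.86 in small pre-B cells, and 2.34 and 2.61 in granulocytes. Fancc was called lower in quiescent thymocytes (-0.45, SE 0.11, limma adjusted p = 0.0259), and its difference in pre-B cells was 0.05 (SE 0.11, limma adjusted p = 0.726). Fancm, the translocase that anchors the complex at stalled forks, was at 8.41 and 10.0 FPKM in cycling and 6.67 and 11.3 FPKM in quiescent thymocytes, whose ranges overlapped, and it was called lower in small pre-B cells at 2.69 and 6.34 FPKM against 6.41 and 8.30 FPKM in large ones (log2 difference -0.67, SE 0.21, limma adjusted p = 0.0439). Fancl was called lower in both lineages and Fancb in pre-B cells alone. Fanca and Fancc each overlap protein-coding genes on the other strand (Zfp276 and 2010111I01Rik), as does Fancl with Vrk2. Part of their reads could belong to these genes. The same limit holds for Xrcc3 and Fanci, which Klc1 and Polg overlap on the other strand by 4653 and 4034 bases.

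The 4 genes around the ID complex fell in both lineages. Fancd2, which is ubiquitinated at cross-links, was at 11.2 and 10.7 FPKM in control and CKO-labelled cycling thymocytes, 0.316 and 2.50 in quiescent thymocytes, 14.9 and 15.9 in large pre-B cells, 2.96 and 6.56 in small pre-B cells, and 5.61 and 5.50 in granulocytes. The difference was -2.48 in thymocytes (SE 0.38, limma adjusted p = 0.00842) and -1.58 in pre-B cells (SE 0.38, limma adjusted p = 0.0221). Usp1, the deubiquitinase that resets FANCD2, was the most abundant member, with 102 and 110 FPKM in cycling thymocytes, 33.2 and 64.9 in quiescent thymocytes, 89.2 and 105 in large pre-B cells, 36.6 and 66.2 in small pre-B cells, and 38.3 and 45.4 in granulocytes. Its differences of -1.17 and -0.96 (SE 0.24, limma adjusted p = 0.0152 and 0.0257) were of like size in the 2 lineages. Fanci, the partner of FANCD2, and Brip1, the helicase that binds BRCA1, differed by -1.38 and -1.66 in thymocytes and by -1.26 and -1.26 in pre-B cells.

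In the checkpoint group, the effector kinases and Topbp1 had large differences and the apical kinases had small ones. Chek1 (chromosome 9, 36708482 to 36727065) was at 26.7 and 34.6 FPKM in cycling thymocytes, 1.45 and 12.5 in quiescent thymocytes, 21.7 and 25.8 in large pre-B cells, 6.31 and 15.9 in small pre-B cells, and 4.42 and 5.22 in granulocytes. It differed by -2.45 in thymocytes (SE 0.51, limma adjusted p = 0.0151) and by -1.15 in pre-B cells (SE 0.51, limma adjusted p = 0.114). Topbp1, the activator of ATR, was at 51.1 and 65.4 FPKM in cycling thymocytes, 15.9 and 30.8 in quiescent thymocytes, 65.8 and 77.4 in large pre-B cells, 33.0 and 49.9 in small pre-B cells, and 27.8 and 32.6 in granulocytes, and with Chek2 it was called lower in both lineages. Atm, the kinase that answers double-strand breaks, was at 3.64 and 5.21 FPKM in cycling thymocytes, 3.62 and 3.64 in quiescent thymocytes, 5.60 and 7.36 in large pre-B cells, 6.46 and 6.77 in small pre-B cells, and 0.662 and 0.564 in granulocytes. Cycling and noncycling values of Atm overlapped in both lineages, with differences of -0.21 and 0.04 (SE 0.16, limma adjusted p = 0.318 and 0.872). Atr differed by -0.17 in thymocytes (SE 0.13, limma adjusted p = 0.332) and by -0.35 in pre-B cells (SE 0.13, limma adjusted p = 0.072). The row shared by Atrip and Trex1 was between 14.6 and 24.5 FPKM in the 10 libraries and was called higher in small pre-B cells (0.45, SE 0.14, limma adjusted p = 0.0491).

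Msh6 was the exception in thymocytes. This subunit of the mismatch sensor (chromosome 17, 87975062 to 87990892) was at 48.8 and 51.9 FPKM in control and CKO-labelled cycling thymocytes, 72.0 and 64.8 in quiescent thymocytes, 36.1 and 39.5 in large pre-B cells, 22.9 and 30.9 in small pre-B cells, and 6.01 and 7.55 in granulocytes. Both quiescent thymocyte libraries were above both cycling ones, and both small pre-B libraries were below both large ones. It rose by 0.43 in thymocytes (SE 0.12, limma adjusted p = 0.0358, with 0.0316 to 0.281 over the alternatives), fell by 0.49 in pre-B cells (SE 0.12, limma adjusted p = 0.025), and was the single member called in the test of the difference between lineages (pre-B minus thymocytes -0.92, SE 0.17, limma adjusted p = 0.0456), where 6.84% of all genes were called, 3.22% with a positive and 3.62% with a negative difference. That call was kept in 3 of 10 alternatives, with limma adjusted p between 0.0404 and 0.246, and the direction was kept in all 10. Ung, the glycosylase that removes uracil from DNA, was at 14.9 and 15.9 FPKM in cycling thymocytes, 5.49 and 10.0 in quiescent thymocytes, 19.1 and 17.8 in large pre-B cells, 6.70 and 15.6 in small pre-B cells, and 1.80 and 0.812 in granulocytes. Its groups did not overlap in either lineage, and its differences of -0.96 and -0.78 (SE 0.31) did not pass (limma adjusted p = 0.0558 and 0.0914).

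**Figure D2:**
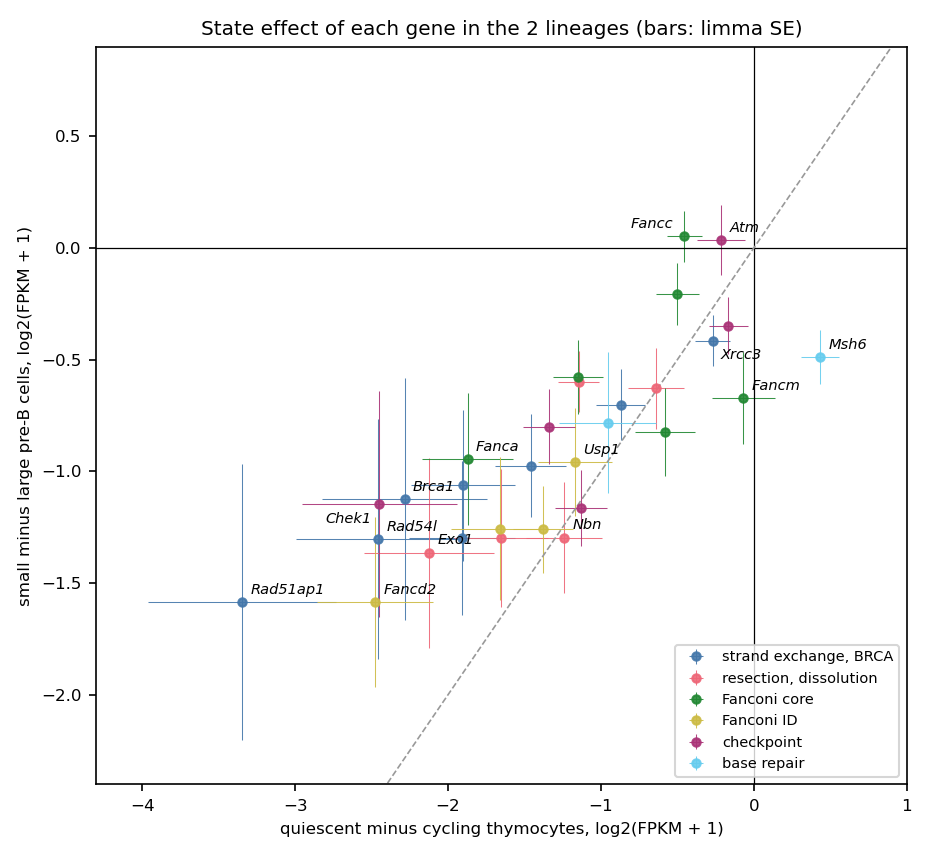
Difference of each of the 30 genes between noncycling and cycling cells in thymocytes (horizontal) and pre-B cells (vertical), in log2(FPKM + 1), with bars of 1 limma SE, colours by role, zero lines and a dashed line of equal differences. Msh6 lies at 0.43 and -0.49, alone to the right of the zero line, and Rad51ap1 at -3.35 and -1.59 is the farthest to the left.

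Genes outside the list but in the same pathways were called lower more often than higher, in counts to be read against 19.7% lower and 25.2% higher among all genes in thymocytes and 21.8% and 25.6% in pre-B cells. Of 23 other homologous recombination genes, 14 were lower and 3 higher in quiescent thymocytes, and 9 lower and 4 higher in small pre-B cells. The nuclease genes Gen1 and Dna2 were lower in quiescent thymocytes (-1.90 and -1.50), and in small pre-B cells Dna2, Eme1 and Gen1 had the most negative differences (-1.47, -1.47 and -1.46), whereas Rad52 was higher in quiescent thymocytes (0.83) and Eme2 in small pre-B cells (0.74). Of 18 other Fanconi and cross-link genes, 5 were lower and none higher in thymocytes, among them the ligase gene Rfwd3 and the conjugating enzyme gene Ube2t (-1.17 and -1.14), and 8 were lower and 2 higher in pre-B cells, from Ube2t, Rfwd3 and Faap100 (-1.34, -0.99 and -0.76) to the nuclease gene Ercc4 (0.58). Of 13 other checkpoint genes, 7 were lower and none higher in thymocytes, and 3 lower and none higher in pre-B cells. Clspn, the adaptor for CHEK1, and the fork genes Tipin and Timeless differed by -3.33, -2.82 and -2.53 in thymocytes, whereas in pre-B cells their differences of -1.23, -1.18 and -1.18 did not pass.

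In repair routes that do not need a sister chromatid, the shares called higher were in part at or below those of all genes (25.2% in thymocytes and 25.6% in pre-B cells). Of all genes, 19.7% were called lower in thymocytes and 21.8% in pre-B cells. In thymocytes each of the lists below had a larger share called lower than that. Among 20 other mismatch and base excision genes, 12 were lower and 1 higher in thymocytes, and 5 lower and 4 higher in pre-B cells. Neil3, Lig1 and Fen1 had the most negative differences in thymocytes (-3.47, -3.03 and -1.81), and Apex1 fell in pre-B cells (-1.35). The glycosylase gene Neil1 was higher in both lineages, at 28.9 and 28.6 FPKM in cycling and 84.2 and 75.5 FPKM in quiescent thymocytes, and at 41.0 and 26.7 FPKM in large and 87.4 and 57.1 FPKM in small pre-B cells (log2 differences 1.44 and 1.07, SE 0.10, limma adjusted p = 0.00617 and 0.00293). Among 9 end-joining genes, which also seal the breaks of receptor gene rearrangement, 3 were lower and 2 higher in thymocytes, and 2 lower and 4 higher in pre-B cells. The nuclease gene Dclre1c rose by 1.65 in thymocytes and the polymerase gene Polm by 2.20 in pre-B cells, whereas Xrcc5 fell by 0.87 and by 1.01. Of 18 nucleotide excision genes, 6 were lower and 9 higher in thymocytes, and 3 lower and 3 higher in pre-B cells.

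The fall between cycling and noncycling cells was shallower in the CKO-labelled libraries for most members, although no test across libraries called it. In control thymocytes the quiescent library held a median of 29.4% of the cycling level, from 0.597% for Rad54l to 147% for Msh6, with 23 of 30 members under 50% and 9 under 10%. In the CKO-labelled thymocytes the median was 45.9%, from 22.8% for Rad51ap1 to 125% for Msh6, with 18 under 50% and none under 10%. Small pre-B cells held a median of 35.5% of the large pre-B level in control libraries, with 20 of 30 members under 50%, and 62.5% in CKO-labelled libraries, with 5 under 50%. The percentage was higher in the CKO-labelled pair for 25 members in thymocytes, the exceptions being Atm, Atr, Fancc, Msh6 and Xrcc3, and for 27 in pre-B cells, the exceptions being Atm, Atr and Fancc, against 50.6% and 40.0% of all genes. The median over all genes was 106% in control and CKO-labelled thymocytes alike, and 105.7% and 101.2% in pre-B cells. Among strand exchange genes the median was 8.15% in control and 37.1% in CKO-labelled thymocytes, and among core complex genes 56.1% and 69.5%. The same percentage of the 15 proliferation reference genes had a median of 4.48% and 36.2% in control and CKO-labelled thymocytes and of 28.2% and 56.0% in pre-B cells.

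**Figure D3:**
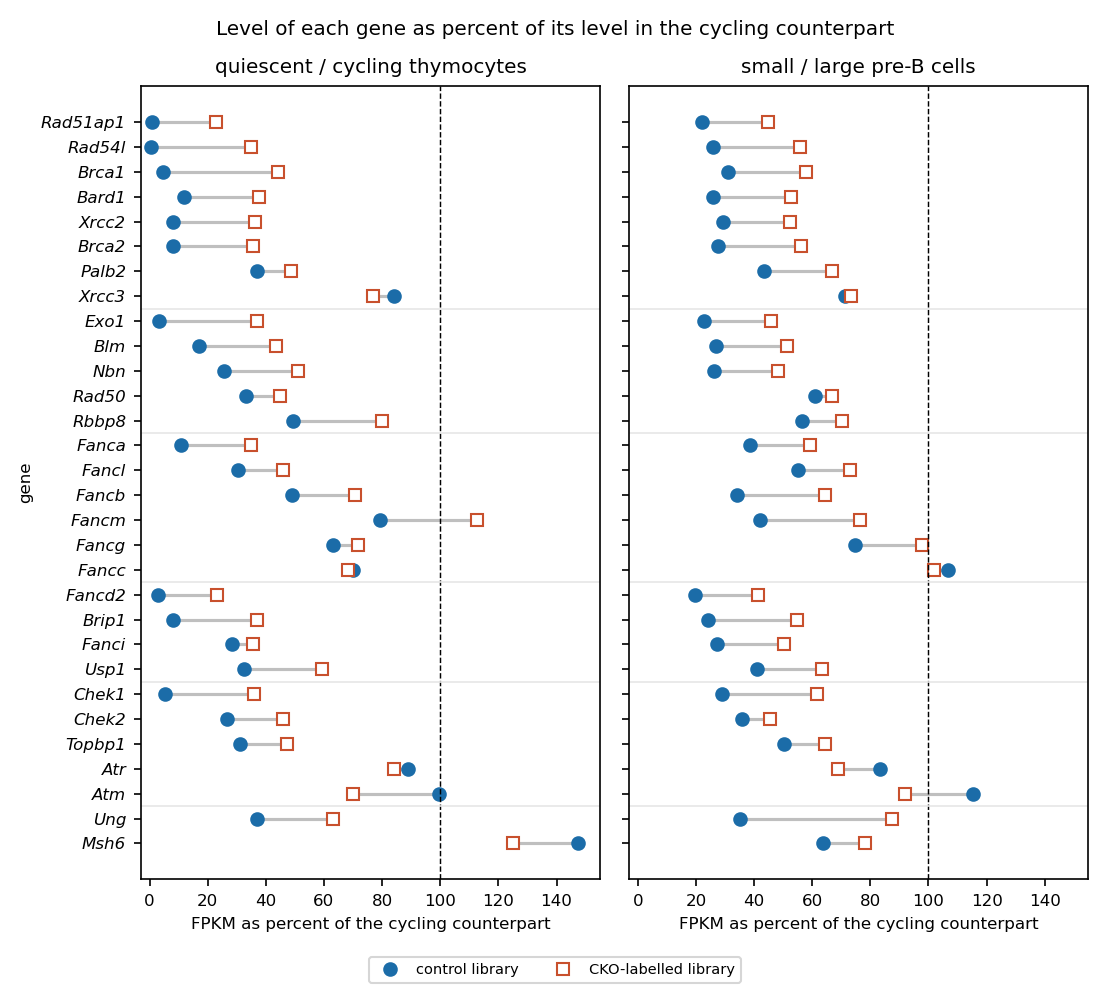
Level of each of the 30 genes in quiescent thymocytes as a percentage of cycling thymocytes (left) and in small pre-B cells as a percentage of large ones (right), from 1 library each, for control (filled circles) and CKO-labelled libraries (open squares), with a dashed line at 100%. The open squares lie to the right for 25 genes in thymocytes and 27 in pre-B cells.

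In the limma test of the genotype difference of that fall over both lineages, no member passed at an adjusted p of 0.05, where 0.00899% of all genes did, which is 1 gene. Without adjustment 6 of the 30 members and 266 of 11126 genes had p under 0.05. The term was positive, meaning a shallower fall in CKO-labelled libraries, for 26 of 30 members and for 44.6% of all genes, with a median of 0.61 against -0.03. Rad51ap1 had the largest term (1.81, SE 0.95), followed by Rad54l (1.62, SE 0.65), Brca1 (1.56, SE 0.69) and Chek1 (1.53, SE 0.70), each with a limma adjusted p of 1. The 15 proliferation reference genes were positive in 15 of 15, with a median of 1.75. Without the control pre-B pair, 3 members were called (Brca1, Rad51ap1 and Rad54l), with 82 of all genes (0.755%). The fit has few residual degrees of freedom, and the lack of calls does not show that the falls were alike in the genotypes.

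Within single populations, where 1 library stood against 1 and no test was possible, ratios of 2-fold were found in the noncycling cells. The ratio was taken on the (FPKM + 1) scale, for members that reached 5 FPKM in 1 of the 2 libraries. In cycling thymocytes, large pre-B cells and granulocytes none of the 26, 29 and 15 considered members reached 2-fold, with median log2 ratios of 0.14, 0.17 and 0.14, and the share of all genes at least 2-fold higher was 0.374%, 0.871% and 0.571%, and at least 2-fold lower 0.58%, 0.972% and 1.76%. In quiescent thymocytes 5 of 14 considered members were at least 2-fold higher in the CKO-labelled library, against 3.66% of all genes, and none was lower, against 1.6%. These were Rad51ap1 with a log2 ratio of 2.85, Brca1 with 2.57, Chek1 with 2.46, Bard1 with 1.41 and Blm with 1.24. In control they stood at 0.323, 0.98, 1.45, 1.80 and 2.89 FPKM, so all 5 were considered only through their CKO-labelled level. Members at 5 FPKM or more in the control library were all under 2-fold. The count therefore depends on the filter, which was the same for the share of all genes. Another 7, among them Exo1, Fancd2 and Rad54l, passed 2-fold from levels under 5 FPKM in both libraries. In small pre-B cells 8 of 26 were at least 2-fold higher, against 4.52% of all genes, and none was lower, against 1.78%. These were Brip1 with 1.22, Chek1 with 1.21, Rad54l with 1.17, Bard1 and Brca1 with 1.12, Ung with 1.11, Rad51ap1 with 1.08 and Exo1 with 1.07. Of these, Brip1, Bard1, Brca1 and Exo1 reached 5 FPKM only in the CKO-labelled library, and the others in both. At a pseudocount of 5, 3 members were past 2-fold in quiescent thymocytes and 0 in small pre-B cells. Of all genes, 185 of 7852 and 134 of 8207 were at least 2-fold higher there. With genes of 1 FPKM or more included, there were 12 of 30 members in quiescent thymocytes, the 7 above among them, against 395 of 10248 genes.

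Other values moved between the same libraries. In quiescent thymocytes the 15 proliferation genes summed to 428 and 1398 FPKM, control first, and in small pre-B cells to 826 and 1765 FPKM, and Mki67 alone was at 1.70 and 48.3 FPKM and at 35.0 and 75.5 FPKM. In small pre-B cells the 9 natural killer and cytotoxic markers summed to 10.2 and 90.1 FPKM, with 5 and 9 of them at 1 FPKM or more and none at 0, and the 5 progenitor markers to 3.05 and 18.2 FPKM. Of the 8 plasmacytoid dendritic cell markers 7 were higher in CKO-labelled than in control small pre-B cells, among them Siglech (2.25 and 41.5 FPKM, control first), Runx2 (1.06 and 28.1), Cd7 (2.81 and 41.2) and Bst2 (21.1 and 134), whereas Spib was lower (839 and 420) and the list's sum was 990 and 962 FPKM. Of the 9 pre-B markers, the 3 surrogate light chain genes were higher in CKO-labelled small pre-B cells, with Igll1 at 107 and 440 FPKM, Vpreb1 at 132 and 418 and Vpreb2 at 38.1 and 156, and the other 6 were lower. In quiescent thymocytes the cytotoxic markers summed to 21.1 and 55.0 FPKM, with 1 of 9 at 1 FPKM or more and 4 and 3 listed at 0. The part of these in the repair gene levels was not tested.

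**Figure D4:**
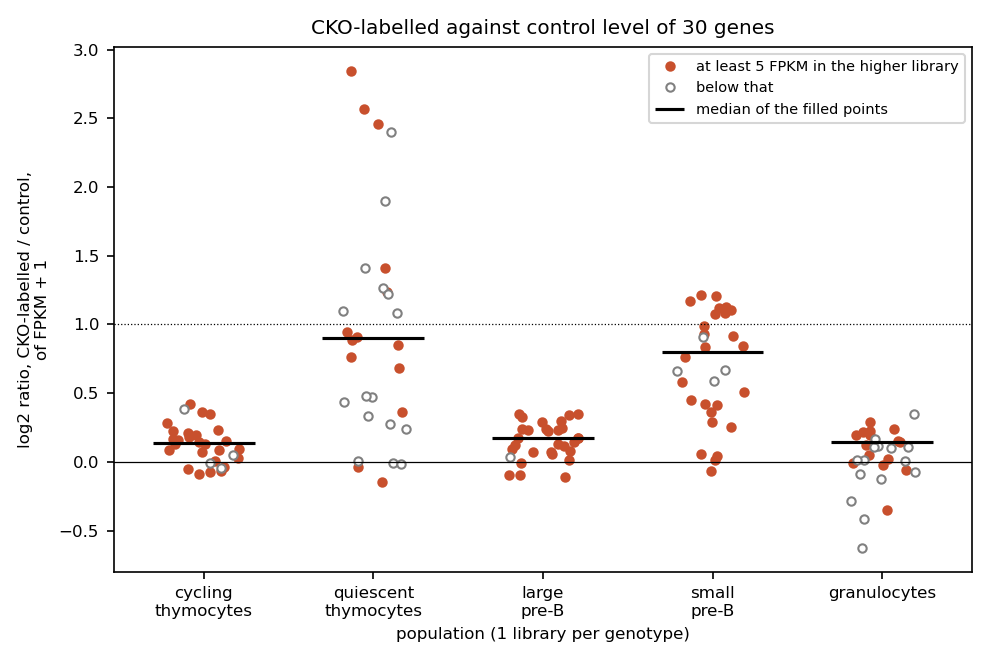
Log2 ratio of CKO-labelled over control (FPKM + 1) for each of the 30 genes in each population, 1 library per genotype, with the genes at 5 FPKM or more in the higher library filled, a bar at their median and a dotted line at 2-fold. Medians are 0.14, 0.90, 0.17, 0.80 and 0.14 from left to right.

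Over the 4 lymphoid populations together, with population as a block, no member was called between genotypes, where 0.036% of all genes were (0.027% as higher and 0.00899% as lower, 4 genes in all). The limma estimate was above 0 for 30 of 30 members and for 48.4% of all genes, with a median of 0.45 against -0.01, and 16 members and 1867 genes had an unadjusted p under 0.05. The CKO-labelled library was the higher one in each of the 4 population pairs for 17 members and for 14.0% of all genes. Chek1 had the largest estimate (1.07, SE 0.37, limma adjusted p = 0.263), and Xrcc3 the smallest (0.02, SE 0.08, limma adjusted p = 0.895). With granulocytes included, no member was called either, where 0.0512% of all genes were (0.0341% as higher and 0.0171% as lower, 6 genes in all). In that limma test 14 members and 1970 of 11715 genes had an unadjusted p under 0.05, and the median was 0.30 against -0.01.

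Between the cycling populations of the 2 lineages, members differed in both directions. Over 6 libraries with genotype as a block, 11 of 30 members were higher in large pre-B cells than in cycling thymocytes and 4 were lower, against 30.9% and 27.5% of 11383 genes (58.5% in either direction), so the share of members called higher was near that of all genes. The largest excess in large pre-B cells was that of Chek2, the checkpoint kinase downstream of ATM, at 12.6 and 15.1 FPKM against 5.39 and 5.23 FPKM (log2 difference 1.23, SE 0.12, higher in 2 of 2 pairs). Rad54l (0.99), Brip1 (0.96), Rad50 (0.81) and Atr (0.75) followed. Higher in cycling thymocytes were Rbbp8 (-0.54), Xrcc2 (-0.52), Msh6 (-0.41) and Chek1 (-0.35). The other 15, Rad51ap1, Brca1 and Exo1 among them, were not called. These 15 calls were 8 in a fit of all 10 libraries and 4 to 17 when 1 library was left out, with 4 without CKO-labelled and 6 without control cycling thymocytes, and 7 and 8 without CKO-labelled and control large pre-B cells. In the same 4 fits 33.3%, 37.3%, 42.4% and 45.1% of all genes were called, and 51.3% in the fit of all 10 libraries.

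Granulocytes held less of these transcripts than large pre-B cells. The limma test called 29 of 30 members lower, in a comparison in which 82.2% of all genes were called, 38.9% as lower and 43.3% as higher. The largest differences were those of Ung (-3.11, SE 0.19), Msh6 (-2.32, SE 0.09) and Atm (-2.20, SE 0.17), all 3 at their lowest level of any population in granulocytes. Fanca was the exception, at 10.3 and 10.2 FPKM in granulocytes and 12.6 and 11.6 FPKM in large pre-B cells (-0.22, SE 0.10, limma adjusted p = 0.0813), and Fancg had the next smallest difference (-0.30, SE 0.10). Both granulocyte libraries exceeded both small pre-B libraries for 2 members, Fanca and Chek2, against 44.3% of all genes. When libraries were rescaled by median ratios, all 30 were called, and the median over all genes moved from 0.06 to -0.16, so that differences in this comparison are relative to that shift. The proliferation reference genes summed to 855 and 890 FPKM in granulocytes, close to the 826 FPKM of control small pre-B cells. Single genes differed in both directions. Mki67 (76.0 and 95.1 FPKM against 35.0), Top2a, Ccna2, Ccnb1, Cdk1, Birc5 and Tyms were higher in both granulocyte libraries than in control small pre-B cells. Pcna (117 and 125 FPKM against 252) and the listed Mcm genes were lower, and the 2 granulocyte values of Rrm2 lay on either side. No gate for granulocytes is given in the labels.

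**Figure D5:**
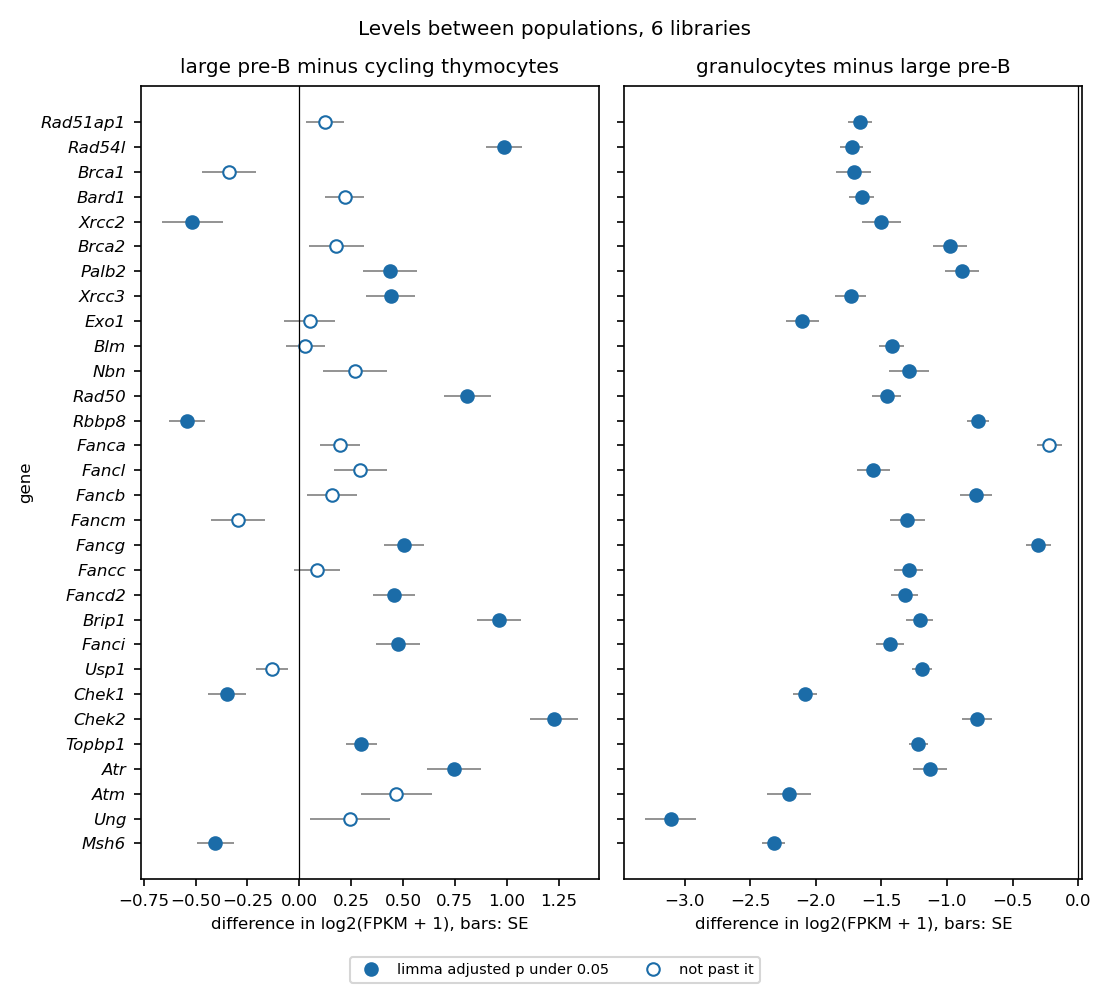
Difference of each of the 30 genes between large pre-B cells and cycling thymocytes (left) and between granulocytes and large pre-B cells (right), in log2(FPKM + 1) with bars of 1 limma SE, from 6 libraries, 2 per population. Filled points passed a limma adjusted p of 0.05, which 15 genes did on the left and 29 on the right, and Fanca is the open point on the right.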

How the data were processed

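Total RNA was extracted with RNeasy kits and libraries followed Illumina protocols, per the labels' protocols. Per the submitters' processing notes, the tools were TopHat2 2.0.8b and Cuffdiff 2.1.1 and the build was mm10. The deposited values are read as FPKM, inferred from these tools and from the values. No annotation or strand setting is named, and both are not given in the sources used here. Every deposited table held 23179 rows, 201 of them exact repeats. For 47 symbols with several distinct rows the most abundant row was used, for 22923 symbols in all. Rows naming several genes (178) were kept as they are.

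Values were analysed as log2(FPKM + 1), which understates changes of low genes, using the limma-trend method of limma 3.58.1 in R 4.3.3, on genes at 1 FPKM or more in 2 fitted libraries, Benjamini-Hochberg adjustment over all genes tested and a two-sided threshold of 0.05. Of the members, 30 passed this filter in every test. The state effects used a block per lineage and genotype, the genotype tests a block per population and the comparisons of populations a block per genotype. Nothing in the labels gives separate replicates, so p-values measure the spread between these libraries. The fits were also run on simulated data with independent noise around their fitted values, with the outcome not reported here. For the state tests such data hold no falls that differ between genotypes, so they cannot show how the fits act there.

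The 32 members, the role groups and the other gene lists (189 entries, 182 found, 11 of them by older symbols) were chosen with earlier results of these data known. FPKM in every library are given for the member with the highest mean and those with the most and the least negative mean state effect in each role, for those called in a genotype or lineage-difference test, and for others singled out after their values were seen. In the other lists the 3 most negative and the 1 most positive genes were named for each lineage, of which the text gives some and some are not reported here. Gene positions are from GENCODE vM21 on GRCm38, and promoters from RefSeq's GRCm38.p6 table. Alternatives were pseudocounts of 0.1 and 5, filters of none and 5 FPKM, rescaling by median ratios, summed rows, other blocks and leaving out libraries. Depth per library could not be recovered from the FPKM, so no counting interval is given. Tables were joined with pandas 2.3.3 and numpy 2.4.6 under Python 3.11.15, and plots drawn with matplotlib 3.10.9.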

Additional observations from a re-analysis of the deposited data

Results flagged for a closer look

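The difference between noncycling and cycling cells was not the same in the 2 lineages for Msh6. The pre-B difference minus the thymocyte difference was -0.92 on the log2(FPKM + 1) scale (SE 0.17, limma adjusted p = 0.0456, with 0.0404 to 0.246 over the alternatives), where 6.84% of all genes were called. Msh6 was higher in the quiescent library of 2 of 2 thymocyte pairs and lower in the small library of 2 of 2 pre-B pairs.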

How the results depend on the processing

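No called member changed sign in any of the 8 tests under the alternatives run. Of 1684 estimates of uncalled members under alternatives 41 changed sign, 23 of them in the lineage difference. Among those named in the text, Fancm in thymocytes was -0.29 to 0.16 with a pair left out (0.16 without the control thymocyte pair), and Atm in pre-B cells was -0.0017 after rescaling and -0.11 to 0.18 with a pair left out (-0.11 without the control pre-B pair). Called members in the thymocyte state test numbered 24, with 10 when no filter was used and 0 to 21 when a pair of libraries was left out (0 without the control thymocyte pair). In the pre-B state test they numbered 21, with 13 at a pseudocount of 0.1, 2 with no filter and 0 to 24 with a pair left out (0 without the control pre-B pair, 1 without the CKO-labelled one). With no filter 17121 genes were tested, of which 20.3% were called in thymocytes and 23.3% in pre-B cells. At a pseudocount of 0.1, 45.1% of all genes were called in pre-B cells. In either direction, pre-B calls among the 30 members were thus rarer than among all genes with no filter, and about as frequent at that pseudocount. The lineage difference of Msh6 was the single call, with 0 calls at a pseudocount of 0.1, with no filter and after rescaling, and 0 to 1 with a pair left out. Without the CKO-labelled thymocyte pair that 1 call was Rad51ap1, not Msh6 (-1.04, limma adjusted p = 0.073). The genotype difference of the state effect gave 0, and 0 to 3 with a pair left out. The 15 calls between large pre-B cells and cycling thymocytes were 8 in the fit of all 10 libraries and 4 to 17 with 1 library left out, which was chosen after seeing the data. Of all genes, 58.5% were called in the main fit, 51.3% with all 10 libraries and 33.3% to 61.5% with 1 left out. Members at least 2-fold higher in CKO-labelled quiescent thymocytes numbered 5, with 3 at a pseudocount of 5 and 12 at a minimum of 1 FPKM. In the same order, 287 of 7852, 185 of 7852 and 395 of 10248 of all genes were so. In small pre-B cells such members numbered 8, with 0 at a pseudocount of 5, against 371 and 134 of 8207 genes. Apart from the alternatives named with their own construction (fewer samples, more genes tested), the cause was not tested. Counts for granulocytes and for both genotype tests stayed within 1.5 times under each alternative run. Libraries were paired by lineage and genotype or by population in the tests themselves, and a pairing by replicate number was not possible because the labels give none. The unknown depth limits what low values such as those of control quiescent thymocytes can show.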
